A study of Mus musculus with 18 samples.

Results

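Isolated H3K27me3 regions are short stretches of the genome that were listed as differing in H3K27me3 between normal thymocytes and leukaemia and that stood alone, far from any other such stretch. They were chosen by 3 values of the deposited H3K27me3 list: an autosome, a gap of more than 20 kb to every other listed H3K27me3 region, and a width below 2000 bp. Of 22682 listed regions 22579 lay on the 19 autosomes, 2352 of these had such a gap, and 80 of those were too wide, which left 2272 isolated regions (10.1% of the autosomal ones). The normal cells were CD4+ CD8+ double-positive (DP) cells of the thymus, and the leukaemia was T cell acute lymphoblastic leukaemia (T-ALL) in the form of tumours that overexpress Notch1-IC, the active inner part of the Notch1 receptor. H3K27me3 was measured by chromatin immunoprecipitation and sequencing (ChIP-seq) in 2 DP and 2 T-ALL libraries, H3K4me3 and H3K9ac likewise, and Notch1 in 1 T-ALL library. The sources used here do not state strain, age, the promoter that drives Notch1-IC, or whether the 2 libraries of a kind came from separate animals. Each listed histone region carries a position and a display colour, green or red, and no source used here says which colour stands for more of the mark in T-ALL. The lists hold no level for any library, so neither the size of a change nor its spread between replicates could be given, and no region was assigned to a gene, for want of an annotation of the same genome build. Coordinates are mm9, with starts counted from 1.

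H3K27me3 is placed on histone H3 by Polycomb repressive complex 2 (PRC2), whose catalytic subunit is Ezh2, and is removed by the demethylases Kdm6a and Kdm6b. It usually spreads over whole genes and gene clusters that are kept silent, such as developmental regulators. In thymocytes Notch1 enters the nucleus after receptor cleavage, joins the DNA-binding protein RBPJ and switches on its targets, and loss of PRC2 function is known in T-ALL. H3K4me3 marks the starts of active genes and, together with H3K27me3, poised ones. H3K9ac marks active promoters and enhancers.

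Isolated regions were the exception in a list whose regions mostly came in groups. Of the autosomal H3K27me3 regions 12904 (57.2%) lay within 1 kb of another. The isolated regions covered 1.76 Mb, or 9.37% of the 18.8 Mb covered by all autosomal regions. Their median gap to the nearest other region was 80.1 kb, with quartiles of 38.5 and 213 kb. The gap was alike in both colours, with a median of 80.7 kb in green and 79.7 kb in red regions. Because the gap chose these regions, these values and the colours and widths that follow are descriptions from the same comparison and were not tested.

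Red regions made up most of the isolated ones. There were 1805 red and 467 green isolated regions, a green share of 20.6% (95% Clopper-Pearson interval 18.9 to 22.3), against 42.8% over all autosomal regions. The intervals here and below cover counting error only. Among regions under 2000 bp wide the green share was 49.4% at gaps of up to 1 kb and 47.3% at 1 to 5 kb. It was 24.8% at 5 to 20 kb, just outside the isolated class, and ran from 17.2% to 21.9% over the 5 gap classes of the isolated regions. The change in colour with spacing therefore fell mostly below the 20 kb limit. In chains of 10 or more regions, each within 5 kb of the next, green held 53.4% of 5066 regions.

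**Figure D1:**
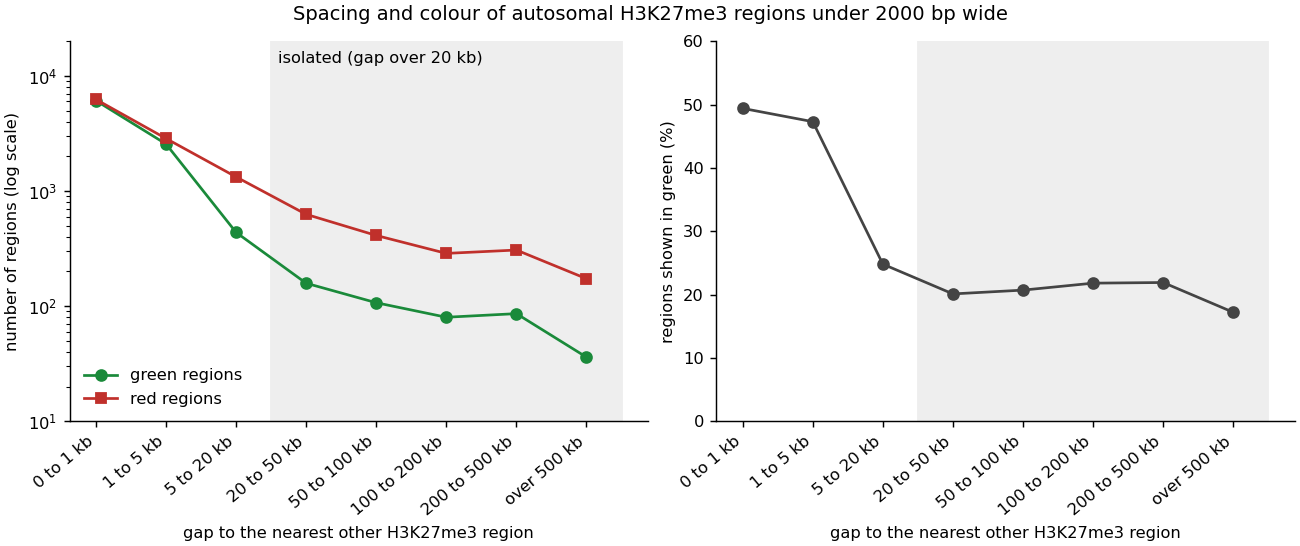
Number of green and red autosomal H3K27me3 regions under 2000 bp wide (left, log scale) and the share shown in green (right, %) in classes of the gap to the nearest other H3K27me3 region, with the isolated classes shaded. The green share is 49.4% at gaps up to 1 kb and 24.8% at 5 to 20 kb, and lies between 17.2% and 21.9% in the shaded classes.

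Green isolated regions were narrower than red ones. The median width was 600 bp in green (quartiles 525 and 775 bp, range 500 to 1825 bp) and 700 bp in red regions (quartiles 550 and 925 bp, range 125 to 1950 bp). Widths of 1000 bp or more were seen in 37 green (7.92%) and 333 red (18.4%) isolated regions. In the autosomal regions that were not isolated, medians were 650 bp in green and 750 bp in red. At the limits of the rule, the 5 members with the smallest gaps had gaps of 20025 to 20075 bp, and the 5 regions just outside had 19925 to 19975 bp. All 10 were red. The 5 widest members measured 1900 to 1950 bp, and the 5 narrowest regions kept out by width measured 2000 to 2025 bp.

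The widest isolated regions were all red. The widest, chr12:102136276-102138225, measured 1950 bp, lay 654 kb from its nearest listed neighbour and held a whole Notch1 peak of 825 bp. The next, chr8:63110826-63112750, measured 1925 bp and had no Notch1 peak within 126 kb and no H3K4me3 region within 242 kb. The remaining 3 of the 5 widest, at 1900 bp each, were chr11:116555176-116557075, chr2:53936476-53938375 and chr3:54858026-54859925. Each of these held a whole Notch1 peak, of 900, 1350 and 825 bp, and none met H3K4me3. Thus 4 of the 5 widest red regions held a Notch1 peak, as did a further one of 1900 bp, chr6:53989026-53990925. Among all red isolated regions of 1000 to under 2000 bp the share with a Notch1 peak was 43.8% (146 of 333).

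The 5 widest green isolated regions held no Notch1 peak. Among all green isolated regions of 1000 to under 2000 bp the share was 5.41% (2 of 37), so none among 5 is near that share. The widest, chr1:154919801-154921625, measured 1825 bp, with the nearest Notch1 peak at 121 kb and the nearest H3K4me3 region at 168 kb. The second, chr11:117341976-117343700, measured 1725 bp and stood 20.4 kb from its neighbour, close to the limit. The third, chr5:32755651-32757225, measured 1575 bp. The last 2 measured 1550 bp each. Of these chr19:17030976-17032525 lay 0.35 kb from a Notch1 peak, and chr9:103012476-103014025 lay 0.475 kb from one, shared 375 bp with a red H3K4me3 region and stood 0.375 kb from an H3K9ac region.

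The most remote isolated regions stood megabases from any other listed H3K27me3 change. The most remote red one, chr1:148344951-148345475, was 525 bp wide with 4.49 Mb to its nearest neighbour, and the nearest H3K4me3 region was 335 kb away. It was followed by chr14:94290076-94291125 (gap 4.27 Mb), chr3:75878151-75878750 (3.46 Mb), chr5:84844851-84845750 (3.39 Mb) and chr8:55162776-55163525 (3.16 Mb). Among these the region on chromosome 3, 600 bp wide, lay wholly inside a Notch1 peak of 775 bp. The one on chromosome 8 shared 650 bp with a red H3K4me3 region.

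The most remote green region, chr15:60655151-60655675, had a gap of 3.13 Mb and shared 300 of its 525 bp with a red H3K4me3 region 1050 bp wide. The next were chr12:66022676-66023500 (gap 2.30 Mb), chr6:58588526-58589100 (1.80 Mb), chr16:72664101-72664600 (1.75 Mb) and chr15:41618501-41619775 (1.13 Mb). None of these 4 shared bases with another list, although the last lay 0.4 kb from an H3K4me3 region and the one on chromosome 6 lay 1.12 kb from a Notch1 peak. The one on chromosome 16 was 500 bp wide and more than 500 kb from every row of the other lists.

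Notch1 peaks were found in red isolated regions and seldom in green ones. A Notch1 peak shared bases with 490 of 1805 red isolated regions (27.1%, 25.1 to 29.3), against 24.8% of all autosomal red regions. It did so with 10 of 467 green isolated regions (2.14%, 1.03 to 3.90), against 1.12% of all autosomal green ones. Over both colours the count was 500 of 2272 (22%, 20.3 to 23.8), against 14.7%, and the larger number of red regions among the isolated ones enters that comparison. The share was higher in red than in green isolated regions on all 19 autosomes. The same order held for regions that were not isolated, with at least 19.7% in red and at most 1.46% in green on any autosome. No difference between groups of regions was tested here or below, because regions are not replicates and the lists hold no value per library. The Notch1 list, unlike the gap, played no part in choosing the regions.

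Against other red regions the excess of Notch1 peaks in isolated ones was small and uneven over the chromosomes. The share was 24.4% (23.6 to 25.2) in red regions that were not isolated, 22.1% (20.4 to 23.8) in red regions of chains of 10 or more and 56.9% (52.6 to 61.1) in 545 broad red regions of 2000 bp or more outside such chains. Isolated red regions were above the other red regions on 9 of the 19 autosomes, and below them on the remaining 10. In red isolated regions the share was lowest on chromosome 14 (15.6%) and highest on chromosome 8 (39.3%). In the other red regions it was lowest on chromosome 15 (19.7%) and highest on chromosome 18 (28.8%).

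**Figure D2:**
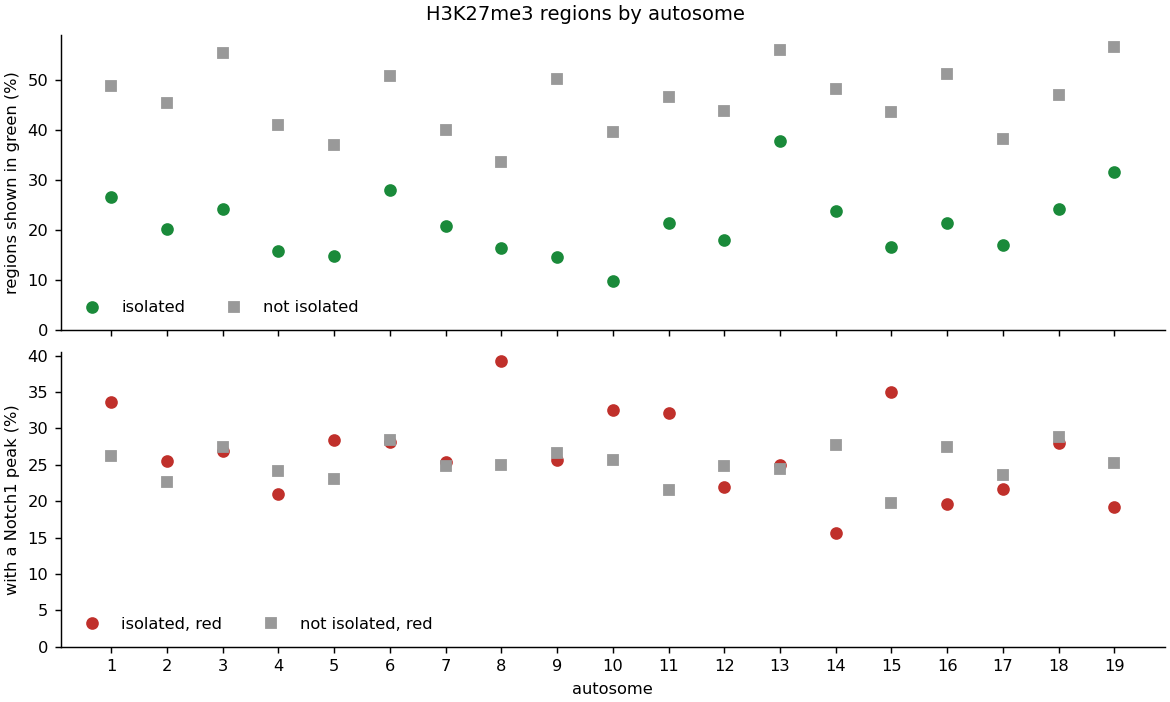
Share of H3K27me3 regions shown in green (top, %) and share of red regions with a Notch1 peak (bottom, %) on each autosome, for isolated regions (circles) and regions that are not isolated (squares). The green share is lower in isolated regions on all 19 autosomes, and the Notch1 share of red isolated regions is higher on 9 of them.

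Wider red regions held Notch1 peaks more often, and in each of 3 width classes the isolated ones as a whole were above the others. In isolated red regions of 500 to under 750 bp the share was 19.7% (186 of 946), at 750 to under 1000 bp it was 30.5% (151 of 495), and at 1000 to under 2000 bp 43.8% (146 of 333). In red regions that were not isolated the shares were 14.7%, 22% and 39.7% in the same classes. It did not hold throughout for the isolated regions with the smallest gaps, 20 to 50 kb. There the share was 32.2% at 1000 to under 2000 bp, below the 39.2% to 44% of the 3 gap classes up to 20 kb, and 22.4% at 750 to under 1000 bp, below the 26% at 1 to 5 kb and the 24.9% at 5 to 20 kb. With the isolated regions' widths, the other red regions would have had a share of 21.3%, against the 27.1% measured. The other regions are often pieces of one group, so a single peak can be set against several of them, and the part this plays was not tested. Red isolated regions with a Notch1 peak had a median width of 825 bp, and those without one 675 bp.

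Among red isolated regions, the more remote ones held Notch1 peaks more often. The share was 21.9% (18.7 to 25.3) in 627 red regions with gaps of 20 to 50 kb, 24.1% (20.0 to 28.5) at 50 to 100 kb and 29.3% (24.1 to 34.9) at 100 to 200 kb. It was 32.2% (27.0 to 37.8) at 200 to 500 kb and 41.0% (33.6 to 48.8) in 173 red regions with gaps over 500 kb. The median width moved with the gap, from 650 bp in the first class to 850 bp in the last. At 750 to under 1000 bp of width the share still went from 22.4% (35 of 156) in the first class to 39.7% (23 of 58) in the last, and at 1000 to under 2000 bp from 32.2% (19 of 59) to 56.9% (29 of 51). In the narrowest class, 500 to under 750 bp, it was 20.0% in the first, 15.9% in the second and 28.3% (17 of 60) in the last, so the order there was not steady. In green isolated regions the 10 peaks were too few to show an order, with 0 of 36 over 500 kb.

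**Figure D3:**
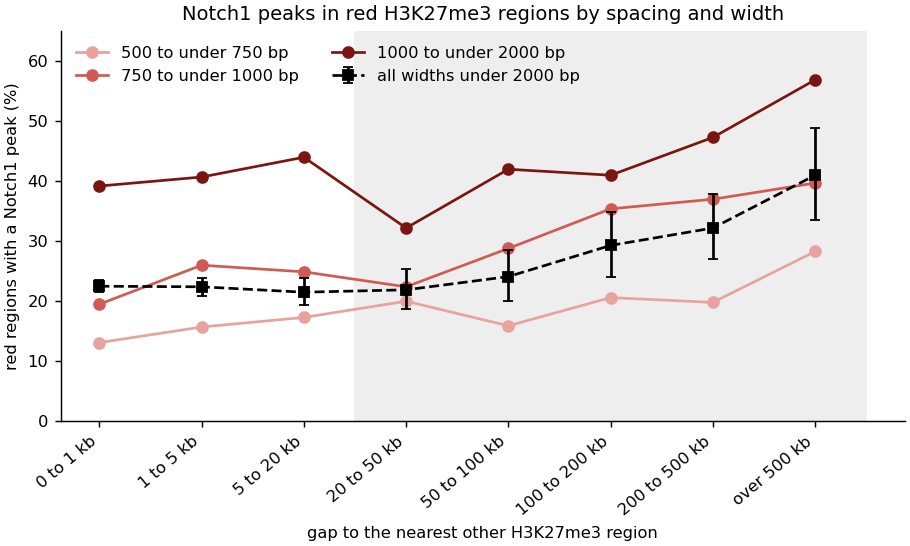
Share of red H3K27me3 regions with a Notch1 peak (%) in classes of the gap to the nearest other H3K27me3 region, for 3 width classes (circles) and for all widths under 2000 bp (squares, with 95% Clopper-Pearson intervals), isolated classes shaded. In the shaded classes the share over all widths goes from 21.9% to 41.0%.

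Notch1 peaks mostly sat near the middle of red isolated regions and off the centre of green ones. In the 490 red regions with a peak, the centres of region and peak lay a median of 125 bp apart (quartiles 50 and 250 bp), 223 pairs (45.5%) lay within 100 bp, and 50% or more of the region was covered in 414 (84.5%). In the 10 green regions the centres lay 275 to 950 bp apart, with a median of 531 bp, and 50% or more was covered in 2. In red regions that were not isolated the median was 188 bp, and 50% or more was covered in 66%. In the 98 green regions with a peak that were not isolated the median was 631 bp, and 50% or more was covered in 10.2%. The off-centre position in green was thus not particular to isolated regions. The profile around the region centres shows the same arrangement. A Notch1 peak covered the centre of 24.4% of red isolated regions and the point 1000 bp away in 2.35%. In green isolated regions it covered the centre in 0.428% and the point 1000 bp away, where the profile was highest, in 2.57%.

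Green isolated regions lay beside Notch1 peaks more often than on them. A peak abutted or lay within 1 kb of 33 green isolated regions (7.07%, 4.91 to 9.78) without sharing a base. This was so for 56 red isolated regions (3.10%, 2.35 to 4.01) and for 8.43% of red regions that were not isolated. Where green regions were not isolated, 1028 of 9200 (11.2%) had such a neighbouring peak, and there the profile was highest at 1700 bp from the centre, at 4.55%.

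**Figure D4:**
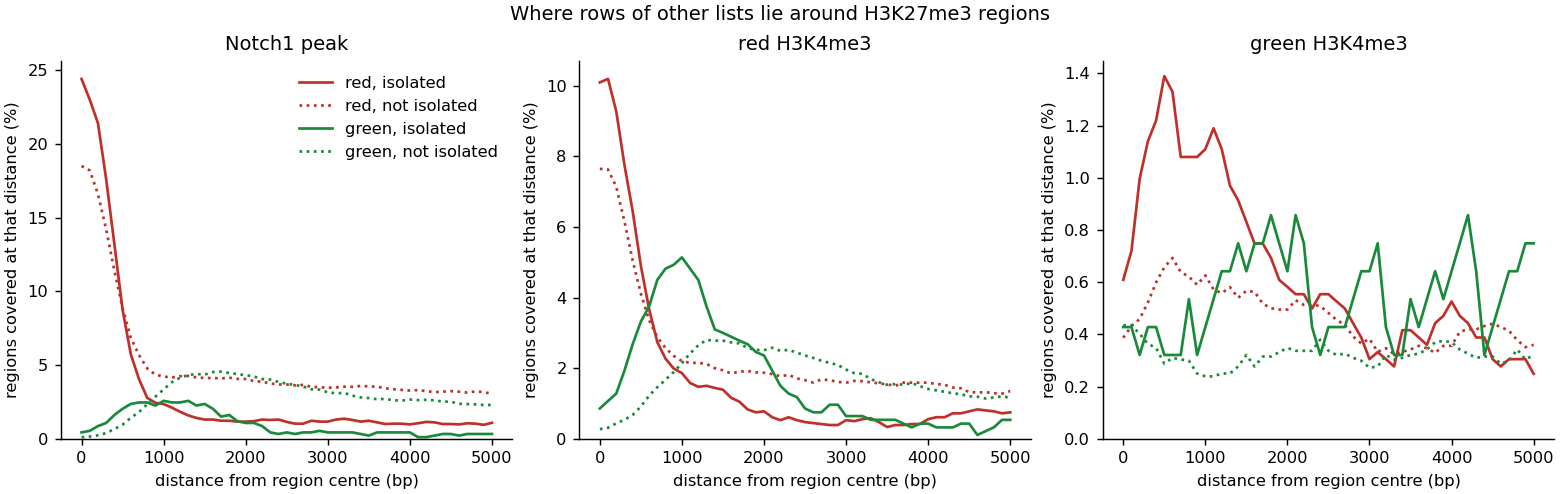
Share of H3K27me3 regions (%) for which the point at a given distance from the region centre (bp, both sides averaged) lies in a Notch1 peak, a red H3K4me3 region or a green H3K4me3 region, for isolated (solid) and not isolated (dotted) regions of each colour. Notch1 and red H3K4me3 are highest at or within 100 bp of the centre of red isolated regions (24.4% and 10.2%) and at 1000 bp from the centre of green ones (2.57% and 5.14%).

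Of the 5 widest green isolated regions with a Notch1 peak, 4 had a peak that ran past one end and left the centre free. The region chr1:127457901-127459000 shared 375 of its 1100 bp with a peak and 325 bp with a red H3K4me3 region, both running out past its start. The region chr12:77776526-77777625, also 1100 bp, shared 500 bp with a peak that ran past its end. The region chr14:50402076-50402900, of 825 bp, shared 300 bp. The region chr1:99990926-99991700, of 775 bp, shared 100 bp with a peak and 350 bp with a red H3K4me3 region. The last, chr13:24082926-24083650, of 725 bp, shared 475 bp, and there the peak covered the centre. Each of the 5 widest red regions with a peak, the 4 above and chr6:53989026-53990925, contained its peak whole. Those red regions measured 1900 to 1950 bp and these green ones 725 to 1100 bp, so the colours are not compared at like width. The part that width plays was not tested.

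Notch1 peaks in isolated regions were often alone too. The red isolated regions held 499 Notch1 peaks, of which 331 (66.3%, 62.0 to 70.5) had no other Notch1 peak within 20 kb. Of the 2788 peaks in the other red regions 916 (32.9%, 31.1 to 34.6) were as far from the next, and of all 14569 peaks 39%. The other regions can have H3K27me3 neighbours that hold peaks, while the gap rule leaves isolated ones no such neighbour within 20 kb. The rule therefore enters this comparison, and its part was not tested. In green isolated regions 8 of 10 peaks were alone (80%, 44.4 to 97.5), against 32 of 92 (34.8%, 25.1 to 45.4) in the other green regions. Peaks in red isolated regions had a median width of 750 bp, against 675 bp for all peaks.

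H3K4me3 met isolated regions mainly as red regions, in both colours of H3K27me3. Over both colours 304 isolated regions (13.4%, 12 to 14.8) shared bases with an H3K4me3 region, against 8.24% of all autosomal regions. Red H3K4me3 met 243 red isolated regions (13.5%, 11.9 to 15.1), against 11.4% of all autosomal red regions. It met 21 green isolated regions (4.50%, 2.80 to 6.79), against 1.66% of all autosomal green ones. Green H3K4me3 met 46 red isolated regions (2.55%, 1.87 to 3.38), against 1.46%, and 3 green ones (0.642%, 0.133 to 1.87), against 0.672%. With the isolated regions' widths the other regions would have had shares of 9.82% for red with red, 1.35% for red H3K4me3 in green and 0.979% for green H3K4me3 in red. Red H3K4me3 was more frequent in red isolated regions than in the other red regions on 13 of the 19 autosomes. Over the 5 gap classes, from 20 to 50 kb up to over 500 kb, it met 10.8%, 15.6%, 16.4%, 14.0% and 12.1% of red isolated regions. Of green ones it met 1.90%, 2.80%, 5%, 10.5% (9 of 86) and 5.56% (2 of 36). The share thus did not rise throughout in either colour. At gaps up to 1 kb regions under 2000 bp wide gave 10.4% in red and 1.82% in green, and at 5 to 20 kb 9.95% and 0.229%. Green H3K4me3 met 0.957% of red isolated regions at 20 to 50 kb, against 1.31% up to 1 kb and 0.603% at 5 to 20 kb. In broad regions outside chains of 10 or more, red H3K4me3 met 25.5% of red and 8.16% of green ones.

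**Figure D5:**
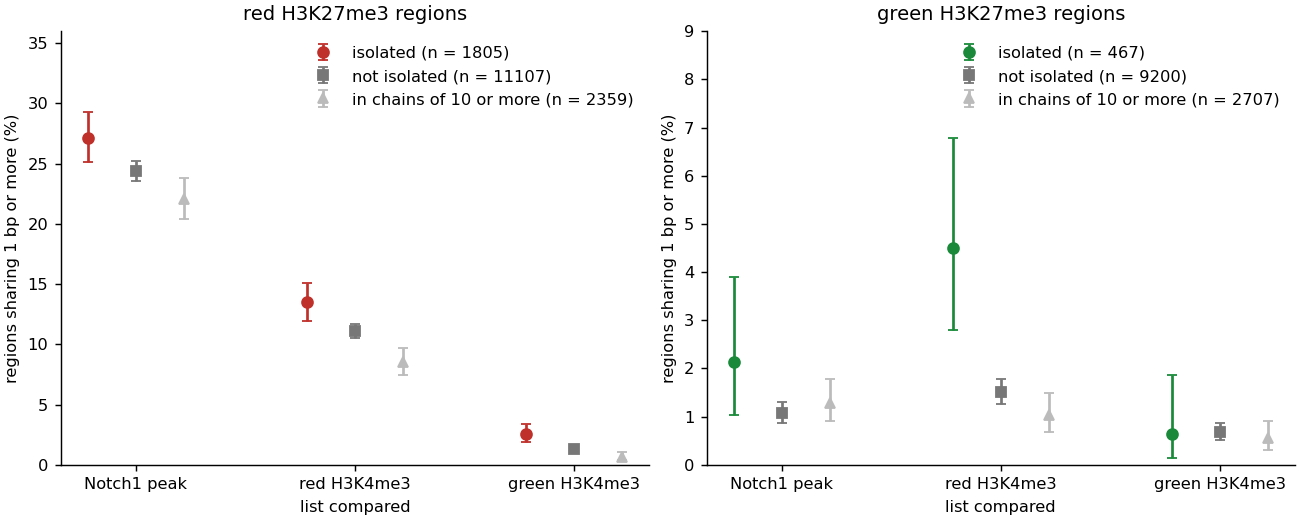
Share of red (left) and green (right) H3K27me3 regions that share 1 bp or more with a Notch1 peak, a red H3K4me3 region or a green H3K4me3 region (%), for isolated regions, regions not isolated and regions in chains of 10 or more. Bars are 95% Clopper-Pearson intervals, and the scales of the panels differ. Red H3K4me3 meets 4.50% of isolated green regions and 1.51% of green regions that are not isolated.

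The position of H3K4me3 on isolated regions went with the colours of both. Where both marks were red, centres lay a median of 200 bp apart and 50% or more of the isolated region was covered in 170 of 243 (70%). Where the isolated region was green and H3K4me3 red, centres lay a median of 688 bp apart and 50% or more was covered in 5 of 21. Where the isolated region was red and H3K4me3 green, the median was 462 bp and 50% or more was covered in 12 of 46. The 3 meetings of green with green had centres 162, 525 and 538 bp apart, and 50% or more was covered in 2. Another 43 green isolated regions (9.21%) had a red H3K4me3 region within 1 kb without a shared base, against 52 red ones (2.88%). The same order was seen in regions that were not isolated, with 6.40% in green and 4.31% in red. In regions that were not isolated the median centre distance was 212 bp for red with red and 650 bp for red H3K4me3 in green. It was 512 bp for green H3K4me3 in red and 319 bp for green with green, where 50% or more was covered in 40 of 62. Regions of unlike colour thus met with centres farther apart than red with red, whether isolated or not. The 3 isolated meetings of green with green are too few to show a rule. Red H3K4me3 around green isolated regions was most frequent 1000 bp from the centre, at 5.14%.

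Most isolated regions shared no base with another list, as did most H3K27me3 regions in general. This held for 438 of 467 green isolated regions (93.8%, 91.2 to 95.8), against 96.8% of all autosomal green regions. It held for 1130 of 1805 red isolated regions (62.6%, 60.3 to 64.8), against 67.2% of all autosomal red regions. Among the red ones 394 (21.8%) met Notch1 alone, against 20.1% of all autosomal red regions, and 144 (7.98%) met red H3K4me3 alone, against 6.67%. Green H3K4me3 alone was met by 32 (1.77%), against 1.03%, and Notch1 with red H3K4me3 by 90 (4.99%), against 4.54%. Another 3 met Notch1 with green H3K4me3, and 3 met Notch1 with both colours. Red H3K4me3 was present in 93 of the 490 red isolated regions with a Notch1 peak (19.0%, 15.6 to 22.7) and in 150 of the 1315 without one (11.4%, 9.74 to 13.2). In red regions that were not isolated these shares were 18.5% and 8.71%. Those with a peak were wider, and in the class of 1000 to under 2000 bp the shares were 23.3% (16.7 to 31.0) and 20.9% (15.3 to 27.4). At 500 to under 750 bp they were 15.6% (10.7 to 21.6) and 8.16% (6.31 to 10.3). Green H3K4me3 was present in 6 red isolated regions with a peak (1.22%, 0.451 to 2.65) and in 40 without (3.04%, 2.18 to 4.12), with intervals that overlap. At 750 to under 1000 bp of width these shares were 3.31% (5 of 151) and 3.20% (11 of 344).

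In all 105 isolated regions (4.62%) met 2 of the other lists, against 2.9% of all autosomal regions that met 2 or more, and 0 met all 3. The larger number of red regions among the isolated ones enters this: the share was 5.60% (4.58 to 6.76) in red isolated regions and 4.76% (4.37 to 5.18) in red regions that were not isolated. Of these 101 were red and 4 green, and the 10 widest were red. The widest, chr5:110909526-110911400, measured 1875 bp and contained a Notch1 peak of 1250 bp and a red H3K4me3 region of 1125 bp. In chr1:24592851-24594625 (1775 bp) a Notch1 peak of 775 bp and a red H3K4me3 region of 600 bp lay within the region, 485 kb from the nearest other H3K27me3 region. In chr10:68674876-68676600 and chr5:28168101-28169825, both 1725 bp wide, the red H3K4me3 regions shared 1300 and 500 bp and the Notch1 peaks 625 and 700 bp. Regions chr10:99477751-99479425 and chr14:27851826-27853500 (1675 bp each), chr10:53470126-53471775 and chr7:46529301-46530950 (1650 bp each) each held a whole Notch1 peak, of 825, 500, 700 and 975 bp, and a whole red H3K4me3 region. In chr6:4697301-4698925 (1625 bp) a whole peak of 875 bp was present with 2 red H3K4me3 regions, of which the first shared 50 bp. The remaining one of the 10 met H3K9ac in place of Notch1 and is given next.

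H3K9ac met 5 isolated regions, all red, and in each the H3K9ac regions were green. Of all 27 autosomal H3K27me3 regions that met H3K9ac 26 were red and 25 met green H3K9ac, so the same colours prevailed over the whole list. On the 11 chromosomes that the H3K9ac list covers, this was 5 of 1427 isolated regions (0.35%, 0.114 to 0.816), against 0.182% of all autosomal regions there. Of 306 green isolated regions 0 met H3K9ac, which allows a share of up to 0.98% by a limit of 3 counts and up to 1.2% by the Clopper-Pearson interval. The widest of the 5, chr2:102289876-102291725 (1850 bp), contained a green H3K4me3 region and a green H3K9ac region of 575 bp each and shared 125 bp with a red H3K4me3 region at its end. Region chr11:117829001-117830050 (1050 bp) met 2 green H3K9ac regions and the end of a green H3K4me3 region 2450 bp wide. Regions chr4:109329501-109330425 (925 bp) and chr9:44850226-44851300 (1075 bp) each shared bases with a green H3K4me3 region, 400 and 600 bp, and with a green H3K9ac region, 475 and 950 bp. Region chr1:191552426-191553025 (600 bp) lay wholly inside a green H3K9ac region and shared 25 bp with a red H3K4me3 region. All 5 thus met H3K4me3 as well, 4 of them in green, and none held a Notch1 peak. Over all red isolated regions 15.6% met H3K4me3 and 27.1% held a Notch1 peak. These shares were not counted among the 27 regions that met H3K9ac, and 5 regions are too few to show a pattern.

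At the median, isolated regions lay farther from the regions of the other lists than the rest did. The gap rule enters these distances, since it leaves no neighbouring H3K27me3 region within 20 kb that could meet another list. The part it plays was not tested. The nearest Notch1 peak was a median of 18.5 kb from red (15.6 to 21.6) and 63.2 kb from green isolated regions (47.9 to 77.2), against 4.40 kb and 10.5 kb for red and green regions that were not isolated. The nearest H3K4me3 region was 26.6 kb from red and 30.2 kb from green isolated regions at the median, against 14.2 kb and 20.7 kb. Leaving out regions that shared bases with a peak, the Notch1 medians were 41.3 kb for 1315 red and 65.8 kb for 457 green isolated regions. For H3K9ac, on its 11 chromosomes, the median was 264 kb, against 187 kb. At short range the order was different for the histone marks, within 1 kb for H3K4me3 and within 20 kb for H3K9ac. An H3K4me3 region lay on or within 1 kb of 15% of green and 19.2% of red isolated regions, against 9.02% and 17.2% of those not isolated. Within 5 kb the H3K4me3 shares were already lower in isolated regions, at 22.9% and 25%, against 24.7% and 31.2%. An H3K9ac region lay within 20 kb of 6.21% of green and 5.89% of red isolated regions, against 3.56% and 5.44%. Within 100 kb the H3K9ac shares were 26.5% and 24.4%, against 28.6% and 31%. A Notch1 peak lay on or within 1 kb of 9.21% of green and 30.2% of red isolated regions, against 12.2% and 32.8%.

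Some isolated regions stood far from every region of all 4 lists. No other listed region or peak lay within 20 kb of 225 green (48.2%, 43.6 to 52.8) and 552 red isolated regions (30.6%, 28.5 to 32.8). The gap rule enters these counts and those that follow. Regions under 2000 bp that were not isolated have an H3K27me3 neighbour within 20 kb and so cannot qualify. The share over all autosomal regions was not counted, and these values describe the isolated regions only. None lay within 100 kb of 43 green (9.21%) and 112 red (6.20%) isolated regions, 155 in all. On the chromosomes without H3K9ac regions this rests on the other 3 lists. Median widths of the 155 were 575 bp in green and 725 bp in red.

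Every autosome held isolated regions. The gap rule removes regions where the list is dense, so their spread over the autosomes is a description of that choice. Their number was lowest on chromosome 16 (65) and highest on chromosome 5 (190), and their density was lowest on chromosome 3 (6.58 per 10 Mb) and highest on chromosome 9 (13.2 per 10 Mb). The density of all autosomal H3K27me3 regions was lowest on chromosome 16 (51.8 per 10 Mb) and highest on chromosome 11 (189 per 10 Mb). As a share of the listed regions, isolated ones were fewest on chromosome 11 (6.01%) and most on chromosome 6 (13.4%). The green share of isolated regions was below that of the other regions on each of the 19 autosomes. It was lowest on chromosome 10 (9.80%, other regions 39.6%) and highest on chromosome 13 (37.8%, other regions 56%).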

How the data were processed

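Per the submitters' processing notes, reads were aligned with BWA to NCBIM37 (mm9). The tool that called the regions, its thresholds, its use of the input libraries and any pooling of replicates were not given in the sources used here. Deposited by the authors were 3 lists of differing histone regions and 1 of Notch1 peaks. The score in each deposited row is 1000, so it is no measurement, and no depth per library could be read. Widths, and starts as deposited (counted from 0), of all 2272 members are multiples of 25 bp.

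Gaps, shared bases (1 bp or more), edge distances and profiles were computed with numpy 2.4.6, pandas 2.3.3 and scipy 1.17.1 in Python 3.11.15, after the interval functions were tested on simulated data. Shares carry 95% Clopper-Pearson intervals, and medians of distances 95% binomial order-statistic intervals. Regions named are, per colour, the 5 widest, the 5 with the largest gap and the 5 widest with a Notch1 peak, then the 10 widest that met 2 or more lists, all that met H3K9ac, and, by their values, the 5 on each side of each limit. The members, lists and settings were chosen with earlier results of these data known. Genes and sequences were not analysed here, for want of an mm9 reference.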

Additional observations from a re-analysis of the deposited data

How the results depend on the processing

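No paired analysis was possible because no list gives a value for a single library, and no replicate could be left out for the same reason. The planned values from genes and sequence were not run. Of 73 alternative values over 11 results, 43 stayed within the interval of the reported value or, for counts, within 1.5 times, and 30 moved. Isolated regions numbered 1487 with gaps above 50 kb, 1209 when narrower ones than their colour's median were dropped, and 4175 when gaps were measured within a colour, all by construction. The green share was 22.6% below 1000 bp of width and 33.3% with gaps within a colour. The share with a Notch1 peak, 22% in all and 27.1% in red, became 24.3% and 30% with gaps above 50 kb, 18.5% and 23.4% below 1000 bp of width, 27% and 33.7% for regions no narrower than the median, 18.3% and 22.9% with 50% of the region covered, and 25.9% and 30.2% with peaks within 1 kb counted. Within-colour gaps gave 29.9% in red. In green regions it became 0.428% with 50% covered and 9.21% within 1 kb. The share meeting H3K4me3, 13.4%, became 15.3%, 11.2%, 16.5%, 8.41% and 18.3% in the same order from gaps above 50 kb to regions within 1 kb, and that meeting H3K9ac 0.911% within 1 kb. With gaps above 10 kb and above 50 kb, median distances were 19.9 and 36 kb to Notch1, 24.1 and 32.2 kb to H3K4me3, and 236 and 293 kb to H3K9ac. Counts over 100 kb from every row were rerun without a width limit and on all chromosomes, chosen after seeing the data. The causes of these moves were not tested beyond the construction of each setting. The unknown depth of the libraries limits what a missing region can mean.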

Other observations

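Very narrow rows were scarce among isolated regions. Of the isolated regions 31 (1.36%) were under 500 bp wide, all of them red, against 1487 (7.32%) of the autosomal regions that were not isolated, 553 of them green. Of these 31, 7 held a Notch1 peak and 7 met red H3K4me3 (22.6% each, 9.59 to 41.1). Among 934 red regions under 500 bp that were not isolated, these shares were 14.8% and 7.82%. Exactly 500 bp was the width of 303 isolated regions (13.3%) and 2204 others (10.9%). Across the wide gap, the nearest H3K27me3 region had the same colour for 1246 red isolated regions (69.0%, 66.8 to 71.2) and for 228 green ones (48.8%, 44.2 to 53.5). In regions that were not isolated these shares were 64.6% and 56.1%. The colour mix of the neighbourhood enters these shares, and its part was not tested.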
